A study of Mus musculus with 12 samples.

Results

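Of the 32285 genes counted in the series, 46 cell cycle genes were described here across the T and natural killer (NK) cells of a mouse melanoma. The genes were given as a list of symbols and were kept apart by phase: 15 S phase genes, 3 G1/S genes, 22 G2/M genes, 2 tubulin-related genes, and 4 G1 cyclins and cell cycle inhibitors. All 46 were found in the 6 matrices, and all 46 passed the filter on low counts in the summed T cells and in the summed NK cells. No measured value entered the choice of genes, although earlier results of these data were known when the list was drawn up.

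The series held 6 Rag1-deficient mice (B6.129S7-Rag1tm1Mom/J), all with intradermal B16-F10 melanoma, a transplantable mouse melanoma line. Every mouse received Pmel Thy1.1 CD8+ T cells by the retro-orbital route. Pmel T cells carry a T cell receptor against a melanocyte antigen that B16 tumours make. In 3 control mice the transferred cells had been treated with vehicle in culture, and in 3 CAL-101 mice with Idelalisib (CAL-101), a drug that blocks PI3K delta, the lymphocyte form of phosphoinositide 3-kinase (PI3K). Live CD45.2+ cells were sorted from the resected tumours and profiled by droplet 3' RNA sequencing. Each mouse was 1 replicate, and no age or time after transfer is given in the sources used here. Hosts that lack Rag1 cannot assemble antigen receptors and have neither T nor B lymphocytes, so the NK cells are host cells that were never in the drug culture.

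A cell that divides copies its DNA in S phase and separates the copies in mitosis. D-type cyclins and their kinases act in G1 and release E2F transcription factors from the retinoblastoma family. E2F then drives the genes for replication: the MCM helicase, the PCNA clamp and the enzymes that supply deoxynucleotides. Later, cyclin A and B with CDK1, the Aurora and Polo-like kinases and the kinesin motors carry the cell through mitosis. Many genes of that last wave share promoter elements called CHR and CCAAT. In T cells, receptor and PI3K signals move cells from G1 into the cycle, and CDKN1A (p21) and CDKN1B (p27) restrain the cyclin-dependent kinases.

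The deposited cell tables gave 45477 cells a cluster number and a cell type label. Cells labelled T, CD8+ T or CD4+ T in clusters 1 to 5 formed the T set of 28518 cells, and cells labelled NK in clusters 0, 7, 8 and 9 the NK set of 10969 cells. The T set held 47137501 to 84987901 RNA UMIs per mouse (UMIs are tags that count single RNA molecules) and the NK set 5207356 to 37985488. The 7 T cell markers summed to 3060 to 3542 CPM in the T set and to 177 to 267 CPM in the NK set, where CPM is a gene's UMIs per 1000000 RNA UMIs of the set in a mouse. The 7 NK markers summed to 71.5 to 124 CPM in the T set and 4277 to 4711 CPM in the NK set. Clusters 1, 4 and 9 held cells of low depth (median 2474 to 3185, 4337 to 5515 and 1838 to 2523 UMIs) with a high share of mitochondrial UMIs (median 11.3 to 15.2%, 14.4 to 18.2% and 5.82 to 10.7%). Libraries shared 8 to 31 cell barcodes per pair of mice, at most 0.402% of the smaller library. Control 2 stood apart from the other control mice: a chi-square of the summed T counts per degree of freedom was 47.0 and 42.7 against them and 7.57 between them. The counts of S, G2/M and further cell cycle genes past the threshold in the whole T and NK sets are therefore also given without each mouse in turn, and calls in single clusters with the number of the 6 omissions that kept them.

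The phases were spread unevenly over the clusters. In the T set, 13 of 15 S genes had their highest mean CPM in cluster 2, and Cdc6 and Cdt1 in cluster 4. Of the G2/M genes, 16 of 22 were highest in cluster 2 and 6 in cluster 4. Among the NK clusters, all 15 S genes, all 22 G2/M genes, the 3 G1/S genes and the 2 tubulin-related genes were highest in cluster 8. The clusters were formed from these cells and genes, so that these levels are a description with no test.

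Summed over the 15 genes, the S level averaged 2289 CPM over the 6 mice in cluster 2 and 951.1 CPM in cluster 3. The 22 G2/M genes summed to 3479 CPM in cluster 2 and 452.8 CPM in cluster 3, so the ratio of the G2/M sum to the S sum was 1.52 in cluster 2 and 0.476 in cluster 3. Cluster 5 was like cluster 3 in this, with a ratio of 0.583 (1082 CPM for S, 630.4 CPM for G2/M). Cluster 4 had the highest ratio, 2.05, with 1275 CPM for S and 2619 CPM for G2/M, although its cells were shallow. Cluster 8 resembled cluster 2 among NK cells, with sums of 1980 and 3652 CPM and a ratio of 1.84, while the large NK cluster 0 had sums of 444.3 and 235.9 CPM and a ratio of 0.531. Cluster 7 had a ratio of 0.684, and clusters 1 and 9 had ratios of 0.999 and 1.02. Summed S RNA was thus above summed G2/M RNA in clusters 3, 5, 0 and 7, and below it in clusters 2, 4 and 8.

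Single genes differed in how sharply they separated the clusters. The median S gene was 1.96 times as high in cluster 2 as in cluster 3, from 1.22 times for Mcm2, a subunit of the MCM helicase, to 7.14 times for Rrm2, the cell cycle-regulated subunit of ribonucleotide reductase. The median G2/M gene was 8.29 times as high, from 2.86 times for Ccnb2 to 19.7 times for Cenpf, a kinetochore protein. In NK cells the same folds, for cluster 8 over cluster 0, had a median of 4.21 for S genes (1.51 for Cdt1 to 17.9 for Pclaf) and 16.7 for G2/M genes (3.87 for Aurka to 32.2 for Cenpf). Mki67, which encodes the proliferation antigen Ki-67, averaged 414.5 CPM in cluster 2, 557.4 CPM in cluster 4, 494.6 CPM in cluster 8 and 46.9 CPM in cluster 3.

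Both cyclin D genes had their lowest level in cluster 2. Ccnd3, the gene of cyclin D3, averaged 145.3 CPM in cluster 2, its lowest cluster, and 535.5 CPM in cluster 1. Among NK cells it was 579.5 CPM in cluster 9 and 469.4 CPM in cluster 0, against 185.7 CPM in cluster 8 and 189 CPM in cluster 7. Ccnd2, the gene of cyclin D2, was also lowest in cluster 2, at 112.1 CPM, and highest in cluster 0, at 234.9 CPM. Cdkn1a was not lowest there: it averaged 65 CPM in cluster 3, its highest T cluster, then 44.3 CPM in cluster 2 and 34.5, 29.95 and 26.3 CPM in clusters 4, 1 and 5. Among NK clusters it was at 109.1 CPM in cluster 0, 92.0 CPM in cluster 8, 87.2 CPM in cluster 9 and 73.4 CPM in cluster 7.

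**Figure D1:**
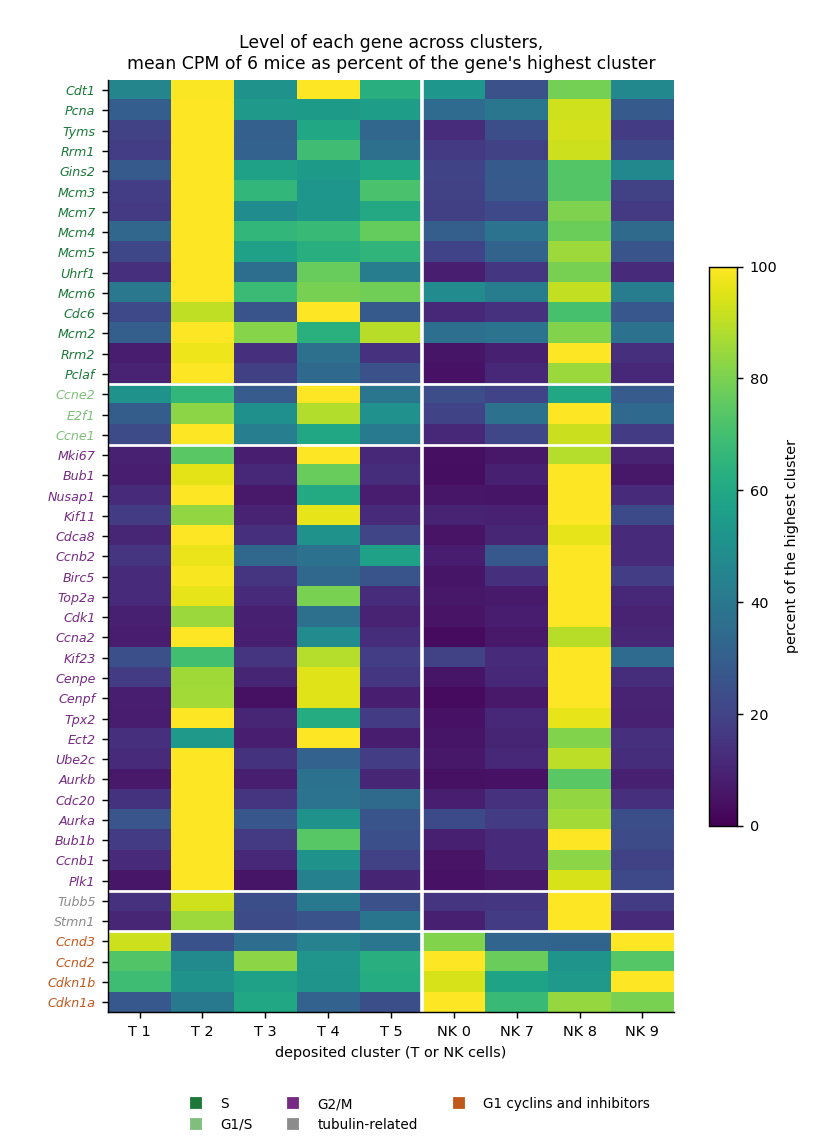
Mean level over the 6 mice of each of the 46 genes (rows, coloured by phase) in the 5 T and 4 NK clusters (columns), as a percent of the gene's highest cluster. Bright cells fall in clusters 2, 4 and 8 for S and G2/M genes, while Ccnd3 and Ccnd2 are brightest in clusters 9 and 0.

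Promoters are shown because S and G2/M genes are known to use different elements. RefSeq promoter windows of 300 bases (250 before to 50 after the annotated start, assembly GRCm38.p6) were held for 38 of the 46 genes. Of these, 5 had 2 or more windows, among them Ect2, whose other window is not printed. The 15 S windows were those of 13 S genes, and the 20 G2/M windows those of 19 G2/M genes. Windows were searched on both strands for CCAAT, for the CHR string TTTGAA and for 4 E2F strings, TTTCCCGC, TTTCGCGC, TTTGCCGC and TTTGGCGC. An E2F string was in 8 of 15 S windows (53.3%) and in 1 of 20 G2/M windows (5%, that of Cdk1), against 2.26% of all 32851 windows in the table. TTTGAA was in 15 of 20 G2/M windows (75.0%) and in 1 of 15 S windows (6.67%, Mcm2), against 17.9% of all. CCAAT was in 80.0% of the S and 90.0% of the G2/M windows, against 37.4% of all. TTTGAA and CCAAT stood together in 75.0% of the G2/M windows, 6.67% of the S windows and 6.95% of all.

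The windows below are the S gene and the G2/M gene with the smallest p in T cells (Pclaf, Aurka) and in NK cells (Mcm5, Ect2), 5′ to 3′ on the gene's strand. Capitals mark the E2F strings, TTTGAA or CCAAT on either strand (ATTGG is CCAAT on the other strand), and Mcm5's 2 E2F strings overlap. Pclaf lies at chr9:65890073-65890372 (plus strand), Aurka at chr2:172370521-172370820 (minus), Mcm5 at chr8:75109259-75109558 (plus) and Ect2 at chr3:27153829-27154128 (minus).
Pclaf: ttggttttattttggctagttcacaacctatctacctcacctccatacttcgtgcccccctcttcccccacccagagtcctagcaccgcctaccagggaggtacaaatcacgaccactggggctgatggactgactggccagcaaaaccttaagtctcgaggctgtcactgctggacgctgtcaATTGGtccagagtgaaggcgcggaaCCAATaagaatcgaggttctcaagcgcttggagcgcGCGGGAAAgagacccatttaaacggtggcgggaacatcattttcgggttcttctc
Aurka: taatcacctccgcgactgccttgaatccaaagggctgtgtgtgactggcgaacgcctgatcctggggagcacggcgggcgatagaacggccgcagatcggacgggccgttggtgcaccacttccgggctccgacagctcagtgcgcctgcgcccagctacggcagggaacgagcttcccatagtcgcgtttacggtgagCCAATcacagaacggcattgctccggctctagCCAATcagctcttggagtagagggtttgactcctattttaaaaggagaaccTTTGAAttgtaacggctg
Mcm5: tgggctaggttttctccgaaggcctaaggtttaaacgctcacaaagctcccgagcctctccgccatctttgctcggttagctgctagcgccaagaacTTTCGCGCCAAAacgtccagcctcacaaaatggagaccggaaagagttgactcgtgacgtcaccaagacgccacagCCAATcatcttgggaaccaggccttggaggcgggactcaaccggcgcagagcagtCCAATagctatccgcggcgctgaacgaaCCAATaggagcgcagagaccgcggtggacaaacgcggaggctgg
Ect2: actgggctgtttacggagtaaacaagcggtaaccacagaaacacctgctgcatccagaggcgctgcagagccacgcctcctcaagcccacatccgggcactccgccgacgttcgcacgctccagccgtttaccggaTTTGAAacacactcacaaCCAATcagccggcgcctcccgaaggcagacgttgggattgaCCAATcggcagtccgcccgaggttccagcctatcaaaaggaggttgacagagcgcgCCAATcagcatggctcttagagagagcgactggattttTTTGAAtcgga

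The E2F string of the Pclaf window began 5 bases before the start, downstream of 2 CCAAT strings at 66 and 41 bases before it. The Mcm5 strings began 153 and 149 bases before the start. In the Aurka window TTTGAA lay 32 bases after the start, with CCAAT 51 and 19 bases before it. The Ect2 window held 2 TTTGAA strings and 3 CCAAT strings. A match of letters is a description and does not show that a factor binds there.

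In T cells of CAL-101 mice, most G2/M genes and some S genes rose, and all 22 G2/M and all 15 S genes had positive log2 values. Of 22 G2/M genes, 20 rose and none fell; their median change was 0.37 on the log2 scale, beside -0.00134 for all genes tested. Of 15 S genes, 5 rose and none fell, with a median of 0.23. Whether the phases differed in their change was not tested. Over all 16450 genes tested, 8.41% rose and 8.92% fell (edgeR quasi-likelihood test on UMIs summed per mouse, Benjamini-Hochberg adjusted p under 0.05). All 22 G2/M genes and 9 of 15 S genes had every CAL-101 mouse above every control mouse in CPM, which held for 24.0% of all genes tested.

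The S genes that rose were Pclaf, Mcm2, Rrm2, Cdc6 and Mcm6. Pclaf, a PCNA-binding factor, was at 279.2, 285.2 and 255.6 CPM in control mice 1 to 3 and 357.9, 332 and 400 CPM in CAL-101 mice 1 to 3. The groups did not overlap, and the log2 change was 0.36 ± 0.09 (SE; edgeR adjusted p = 0.0254). Mcm2 was at 41.97, 42.56 and 37.04 CPM in control and 52.73, 49.5 and 55.87 CPM in CAL-101 mice, a log2 change of 0.33 ± 0.08 (adjusted p = 0.0268). Rrm2 was at 66.56, 71.51 and 62.73 CPM against 89.14, 79.63 and 96.77 CPM, a log2 change of 0.36 ± 0.09 (adjusted p = 0.0303). In each of the 3 genes the lowest CAL-101 mouse was mouse 2 and the lowest control mouse was mouse 3. Cdc6, a loader of the helicase, changed by 0.32 and Mcm6 by 0.28 (log2).

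The other 10 S genes had positive log2 values that did not pass, from 0.04 for Cdt1 to 0.26 for Uhrf1. Pcna, the sliding clamp, was at 200, 221.9 and 193.2 CPM in control and 221.4, 212.9 and 231.1 CPM in CAL-101 mice, with overlap (log2 0.07, adjusted p = 0.573). Tyms, thymidylate synthase, was at 90.77, 103.4 and 86.68 CPM against 103.6, 94.03 and 107 CPM and overlapped as well (log2 0.07, adjusted p = 0.619). Mcm5 was at 87.58, 89.63 and 76.71 CPM against 99.4, 95.99 and 113.6 CPM, without overlap (log2 0.24, adjusted p = 0.114). The 2 subunits of ribonucleotide reductase thus lay apart, with Rrm2 past the threshold and Rrm1 at 0.10 (adjusted p = 0.521). The difference between them was not tested.

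The G2/M genes with the largest log2 values were Plk1, Ccnb1, Bub1b and Aurka. Plk1, Polo-like kinase 1, was at 17.14, 17.33 and 13.98 CPM in control and 28.41, 25.27 and 32.16 CPM in CAL-101 mice, a log2 change of 0.78 ± 0.12 (edgeR adjusted p = 0.0043). Every CAL-101 mouse lay well above every control mouse. Aurka, Aurora kinase A, was at 13.33, 13.58 and 12.12 CPM against 18.28, 19.41 and 19.55 CPM (log2 0.51 ± 0.07, adjusted p = 0.00346). Ect2, the exchange factor that starts cytokinesis, was at 38, 35.22 and 33.98 CPM against 53.37, 48.2 and 51.41 CPM (log2 0.47 ± 0.07, adjusted p = 0.00411). Bub1b, a checkpoint kinase (0.52), and the anaphase-promoting pair Cdc20 (0.50) and Ube2c (0.49) also rose.

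Cdk1 and the cyclins that bind it also rose. Cdk1 was at 65.94, 69.86 and 59.78 CPM in control and 88.22, 77.87 and 92.75 CPM in CAL-101 mice (log2 0.36 ± 0.09, adjusted p = 0.0302). Ccnb1, cyclin B1, was at 31.97, 36.21 and 27.42 CPM against 46.69, 41.26 and 54.02 CPM (log2 0.53 ± 0.13, adjusted p = 0.0288). Ccna2 and Ccnb2 rose by 0.36 and 0.32. The motor genes Kif11, Kif23 and Cenpe rose by 0.27, 0.37 and 0.37. Top2a, the topoisomerase that untangles sister chromatids, was at 275.7, 319.2 and 255 CPM against 361, 365.2 and 381.5 CPM (log2 0.34 ± 0.09, adjusted p = 0.0359).

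Mki67 and Bub1 were the G2/M genes that did not pass. Mki67 was at 241.6, 252.9 and 230.3 CPM in control and 262.9, 270.5 and 257.6 CPM in CAL-101 mice: the groups did not overlap, but the log2 value was 0.08 ± 0.06 (edgeR adjusted p = 0.398). Bub1 had a log2 value of 0.25 (adjusted p = 0.0891). Of the tubulin-related genes, Stmn1, a microtubule destabiliser, was at 373.3, 357.6 and 364.6 CPM against 439.5, 433.9 and 475.2 CPM and rose (log2 0.25 ± 0.06, adjusted p = 0.0286), while the log2 value of Tubb5 was 0.03 (adjusted p = 0.766).

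**Figure D2:**
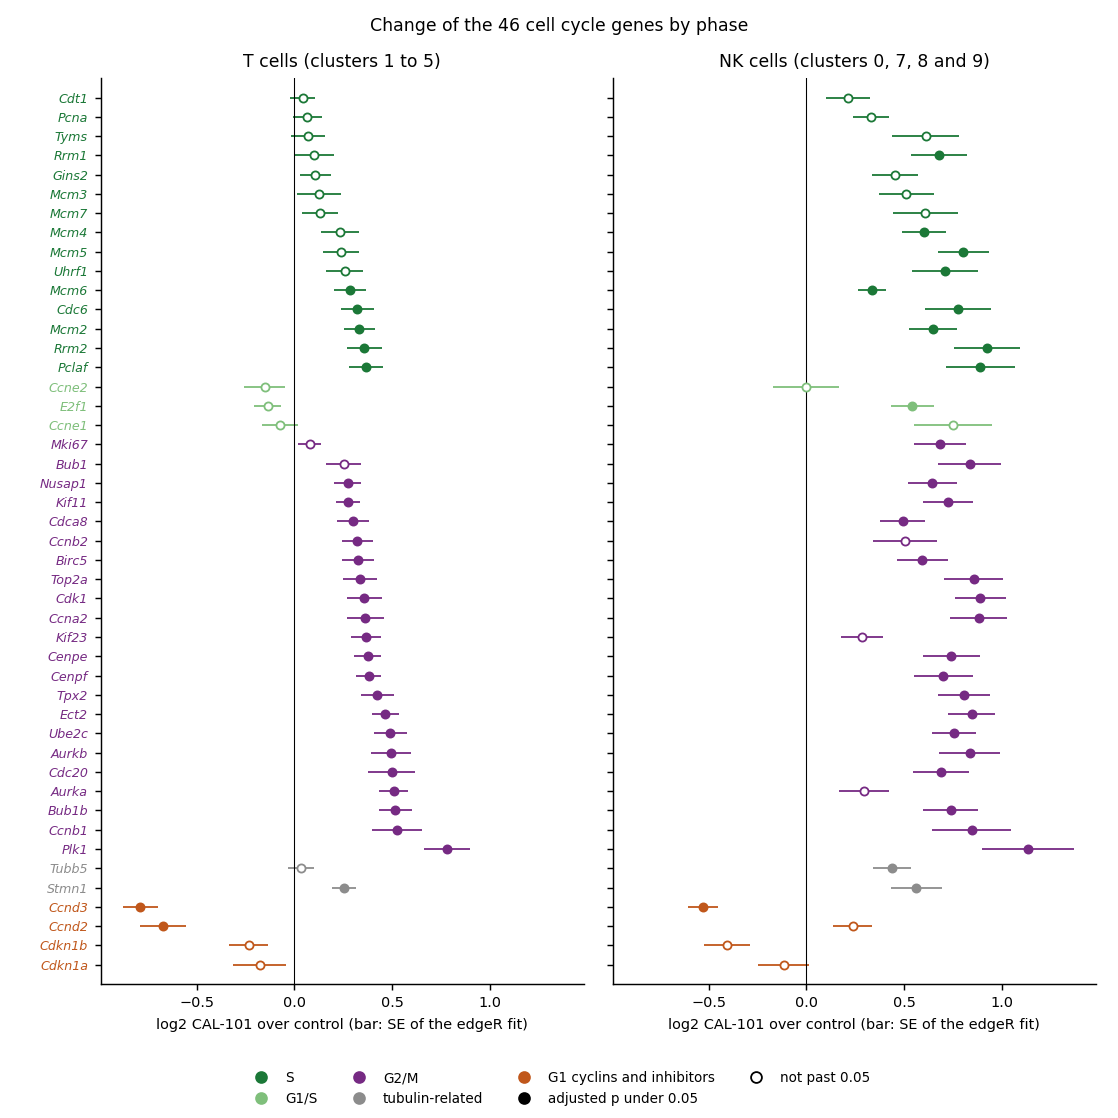
Log2 change (CAL-101 over control, horizontal axis, bar: SE of the edgeR fit) of the 46 genes by phase in T cells (left) and NK cells (right), with filled points past an adjusted p of 0.05. In T cells 20 of 22 G2/M and 5 of 15 S genes are filled, in NK cells 19 and 9, and Ccnd3 lies left of 0 in both.

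Of the 4 G1 genes, 2 fell in T cells and none rose. Ccnd3 (ENSMUSG00000034165) lies at chr17:47505051-47599689 and Ccnd2 (ENSMUSG00000000184) at chr6:127125162-127152188 in the RefSeq table (GRCm38.p6), and both are protein-coding. Ccnd3 fell from 255.5, 292.5 and 247 CPM in control mice to 143.2, 168.6 and 163.4 CPM in CAL-101 mice, and every CAL-101 mouse lay below every control mouse. Its log2 change was -0.79 ± 0.09 (edgeR adjusted p = 0.00123). Ccnd2 fell from 156.3, 208.3 and 158.6 CPM to 115.5, 119.9 and 104 CPM (log2 -0.67 ± 0.12, adjusted p = 0.00702). Non-overlap in the lower direction was seen for 13.8% of all genes tested. Both calls held without each mouse in turn, with log2 values from -0.84 to -0.71 for Ccnd3 and from -0.75 to -0.52 for Ccnd2.

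None of the 3 G1/S genes passed in T cells, and none had an unadjusted p under 0.05 by edgeR or DESeq2. E2f1, an activating E2F factor, was at 26.04, 26.69 and 24.74 CPM in control and 22.92, 24.47 and 25.38 CPM in CAL-101 mice, with overlap (log2 -0.14 ± 0.07, adjusted p = 0.219). The cyclin E genes Ccne1 and Ccne2 had log2 values of -0.07 and -0.15. Cdkn1a was at 53.22, 34.28 and 46.52 CPM against 41.51, 41.31 and 39.79 CPM (log2 -0.18, adjusted p = 0.41), and control 2 was the lowest of the 6 mice. Cdkn1b was at 41.3, 34.83 and 44.85 CPM against 33.39, 39.22 and 33.62 CPM (log2 -0.23, adjusted p = 0.149). Without control 2 both inhibitors passed as lower, Cdkn1a at -0.33 (adjusted p = 0.0138) and Cdkn1b at -0.32 (adjusted p = 0.0247).

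The T cell counts moved with single mice. Leaving out control 1, control 3, CAL-101 1 or CAL-101 3 left 0 of 15 S genes past the threshold in edgeR. Of them, 7, 5, 8 and 5 were higher at an unadjusted p under 0.05. With all mice, 5300 of all 16450 genes had such a p in either direction. Without control 2 or CAL-101 2, 6 and 4 S genes passed. The G2/M count was 9, 21 and 8 without control 1, 2 and 3, and 10, 18 and 9 without CAL-101 1, 2 and 3. Of all genes tested, 3.56% (without control 3) to 11.0% (without control 2) rose under these omissions. The 8 G2/M genes that passed under every omission were Cenpf, Bub1b, Tpx2, Ube2c, Aurka, Ect2, Cenpe and Plk1. All 15 S and all 22 G2/M log2 values stayed positive under each omission.

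The makeup of the T set also differed between the groups. Of all T cells, cluster 2 took 20.1% ± 1.84 in control mice against 24.8% ± 3.13 in CAL-101 mice (SD, n = 3), and 41.5% and 50.8% of the T set's UMIs. Cluster 3 went from 32.2% to 8.30% of cells and cluster 5 from 2.72% to 24.8%. In a summed set, more cells of a cluster and more RNA per cell cannot be told apart. Without cluster 2, 6 of 22 G2/M genes and 4 of 15 S genes rose, beside 8.23% of all genes, and 14 and 7 were higher at an unadjusted p under 0.05. All 22 G2/M values stayed positive there, with a median of 0.27, and the S median was 0.16. Markers of other cells moved too. The 7 NK markers summed to 91.65, 112.5 and 124.4 CPM in control and 71.46 to 96.84 CPM in CAL-101 mice. Klrb1c (log2 -2.10, edgeR adjusted p = 0.00518) and Fcer1g (-1.15, adjusted p = 0.0344) fell. Ncr1, Tyrobp and Klra8 had negative log2 values that did not pass. Eomes (log2 1.37, edgeR adjusted p = 0.0531) and Klre1 (0.20, adjusted p = 0.622) had positive values that did not pass either. The macrophage and dendritic cell markers summed to 28.1 to 35.1 CPM in control and 12.8 to 21.6 CPM in CAL-101 mice, and the neutrophil markers to 1.72 to 5.71 and 1.07 to 1.41 CPM. H2-Ab1, S100a8 and S100a9 fell among them. H2-Ab1 made up most of the macrophage and dendritic cell sum, at 30.5 CPM in control and 14.7 CPM in CAL-101 mice. None of the other markers of that list had a lower mean in CAL-101 mice. The highest of these, Csf1r, was at 0.97 CPM in control and 0.99 CPM in CAL-101 mice. The part of these markers in the gene values was not tested.

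**Figure D3:**
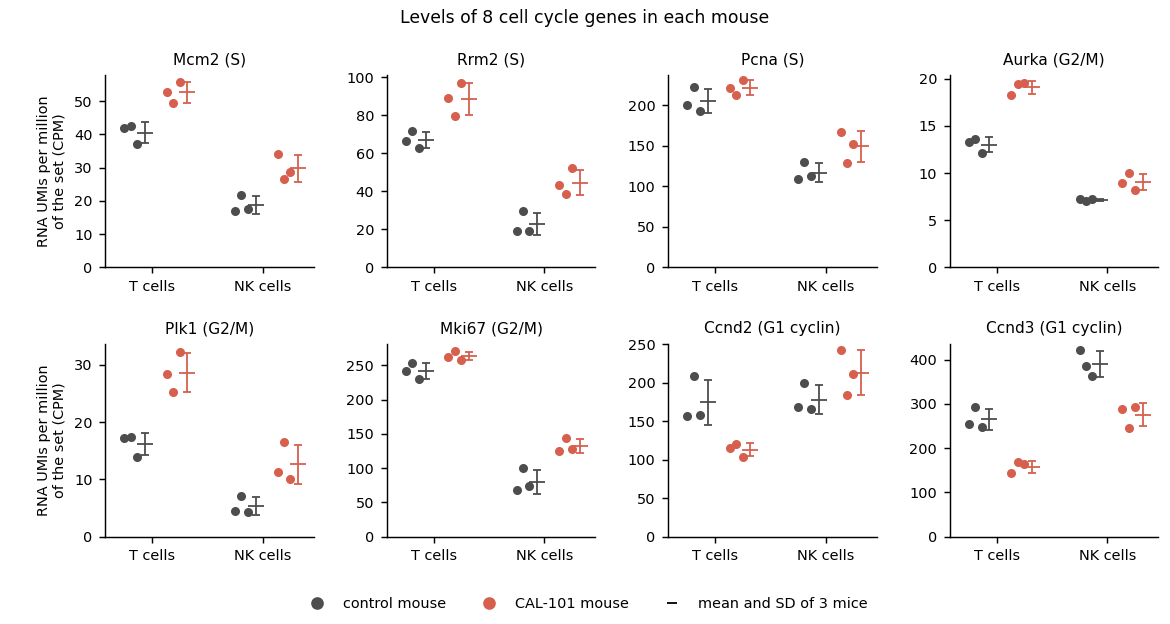
Level (CPM, vertical axis from 0) of 8 genes in each mouse (points; dash and whisker: mean and SD of 3 mice) in T and NK cells of control and CAL-101 mice. Plk1 in T cells lies at 13.98 to 17.33 CPM in control and 25.27 to 32.16 CPM in CAL-101 mice, and the T cell points of Ccnd2 and Ccnd3 are lower in every CAL-101 mouse than in any control mouse.

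In host NK cells of the same tumours, S and G2/M genes were both higher in CAL-101 mice. Of 15 S genes 9 rose and of 22 G2/M genes 19 rose, and none of either group fell. The median log2 value was 0.61 for S and 0.74 for G2/M genes, beside -0.00223 for all genes tested. Of all 13832 genes tested, 2.54% rose and 1.76% fell. The groups lay apart with CAL-101 mice higher for 12 S and all 22 G2/M genes, against 16.0% of all genes tested.

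Of the 6 genes of the MCM helicase, 4 rose in NK cells, as did 5 of the other 9 S genes. Mcm5 was at 27.38, 38.2 and 28.71 CPM in control and 59.87, 47.43 and 60.54 CPM in CAL-101 mice (log2 0.80 ± 0.13, edgeR adjusted p = 0.0184). Mcm4 was at 25.18, 34.28 and 29.33 CPM against 47.99, 42.06 and 47.59 CPM (log2 0.60 ± 0.11, adjusted p = 0.0261). Rrm2 was at 19.26, 29.62 and 19.29 CPM against 43.03, 38.6 and 51.95 CPM (log2 0.92 ± 0.17, adjusted p = 0.026). In all 3 genes control 2 was the highest control mouse and CAL-101 2 the lowest CAL-101 mouse. Mcm2, Mcm6, Pclaf, Rrm1, Cdc6 and Uhrf1 rose by 0.34 (Mcm6) to 0.89 (Pclaf). Tyms was at 28.6, 47.2 and 30.99 CPM against 56.66, 48.78 and 62 CPM and did not pass (log2 0.61, adjusted p = 0.0723), and Pcna overlapped, at 108.5, 129.6 and 112.3 CPM against 166.7, 129.2 and 152.2 CPM (log2 0.33, adjusted p = 0.0764).

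Of the G2/M genes, Ect2 was at 14.39, 18.93 and 16.38 CPM in control and 28, 32.84 and 32.12 CPM in CAL-101 mice (log2 0.85 ± 0.12, edgeR adjusted p = 0.0139). Cdk1 was at 21.99, 31.22 and 22.05 CPM against 46.99, 48.78 and 48.38 CPM (log2 0.89 ± 0.13, adjusted p = 0.0139). Ube2c, a ubiquitin-conjugating enzyme of the anaphase-promoting complex, was at 55.81, 65.55 and 49.3 CPM against 87.97, 106.8 and 101.5 CPM (log2 0.75 ± 0.11, adjusted p = 0.0139). The CAL-101 mice lay close together in Cdk1, and control 2 was again the highest control mouse in all 3 genes.

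Mki67, not past the threshold in T cells, rose in NK cells, from 67.53, 100.2 and 73.22 CPM to 125.4, 144.2 and 128 CPM (log2 0.68 ± 0.13, edgeR adjusted p = 0.0284). Top2a went from 76.35, 123 and 80.29 CPM to 174.1, 173 and 171.6 CPM (log2 0.86 ± 0.15, adjusted p = 0.0243). Ccnb1 was at 9.34, 13.35 and 7.49 CPM against 17.23, 22.66 and 17.71 CPM (log2 0.85 ± 0.20, adjusted p = 0.0455). Plk1 had the largest log2 value of the 46 genes, 1.13 ± 0.24 (adjusted p = 0.0309). Ccnb2, Kif23 and Aurka did not pass (log2 0.50, 0.28 and 0.29).

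Of the G1/S genes, E2f1 rose from 10.68, 12.9 and 12.22 CPM to 18.84, 16.32 and 17.85 CPM (log2 0.54 ± 0.11, edgeR adjusted p = 0.0291). Ccne1 had a log2 value of 0.75 (adjusted p = 0.0643) and Ccne2 of -0.00 (adjusted p = 0.997). Stmn1 and Tubb5 rose by 0.56 and 0.44 (adjusted p = 0.041 and 0.0349). Ccnd3 fell in NK cells as in T cells, from 421.2, 385.1 and 363.7 CPM to 288.3, 245.8 and 292.9 CPM (log2 -0.53 ± 0.08, adjusted p = 0.0139). The groups lay apart, as did 10.5% of all genes tested in the lower direction. The call held without control 2 or CAL-101 2 and did not without each of the other 4 mice, where log2 was -0.47 without control 1, -0.57 without control 3, -0.55 without CAL-101 1 and -0.57 without CAL-101 3. Ccnd2 was at 168.4, 199.3 and 165.7 CPM against 243.1, 184.5 and 211.6 CPM, with overlap (log2 0.24, adjusted p = 0.202). Cdkn1a was at 102.4, 84.43 and 102.9 CPM against 110.8, 76.24 and 81.56 CPM (log2 -0.12, adjusted p = 0.65) and Cdkn1b at 62.02, 48.31 and 61.99 CPM against 39.63, 47.62 and 46.27 CPM (log2 -0.41, adjusted p = 0.081; without control 2 it passed at -0.53).

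No NK call of these genes held under all 6 omissions. Without control 1, 2 and 3 the edgeR counts of S genes were 0, 14 and 0 and of G2/M genes 0, 21 and 0. Without CAL-101 1, 2 and 3 they were 0, 5 and 0 for S and 2, 8 and 0 for G2/M. Where a count was 0, 14 S genes and 20 or 21 G2/M genes were still higher at an unadjusted p under 0.05. The number of all genes past the threshold fell to between 2 and 31. With all mice, 2960 of all 13832 genes had an unadjusted p under 0.05 in either direction. The log2 values of all 15 S and all 22 G2/M genes stayed positive.

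Cluster 8 held 5.71% of NK cells and 11.7% of NK UMIs in control mice, and 11.4% and 21.7% in CAL-101 mice. Without it, 4 S genes and 0 G2/M genes rose in edgeR, beside 0.940% of all genes, with 13 and 11 higher at an unadjusted p under 0.05. The S median was then 0.45 and the G2/M median 0.37, with Aurka and Kif23 below 0. T cell markers in the NK set were at 177 to 267 CPM in control and 208 to 247 CPM in CAL-101 mice, and none of the 7 passed. The neutrophil markers summed to 1.47, 3.90 and 26.2 CPM in control, highest in control 1, and 1.06 to 2.10 CPM in CAL-101 mice, and none passed. In cells labelled neutrophils, which do not divide, the 15 S genes summed to 186 to 197 CPM in control and 245 to 275 CPM in CAL-101 mice, and the 22 G2/M genes to 171 to 303 and 242 to 333 CPM. In NK cells the same sums were 519 to 703 against 812 to 938 CPM and 561 to 786 against 1036 to 1144 CPM. The part of free RNA in the NK values was not tested.

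The difference between the T and NK changes was tested within mice with limma on the difference of log2 CPM. Of the 46 genes only Ccnd2 passed: its T cell change was 0.88 ± 0.13 lower than its NK change (log2 difference -0.88, adjusted p = 0.0432), while 0.821% of 13637 genes passed in that direction and 0.726% in the other. Its CAL-101 mice were all below the control mice in T cells, whereas in NK cells CAL-101 1 and 3 lay above every control mouse and CAL-101 2 among them. The Ccnd2 difference passed without CAL-101 2 (-1.01) and not without any other mouse, with values of -0.92, -0.83 and -0.90 without control 1, 2 and 3 and -0.81 and -0.85 without CAL-101 1 and 3. Rrm1 (-0.59, adjusted p = 0.0555) and E2f1 (-0.67, adjusted p = 0.0606) had the next smallest p and did not pass, nor did Mki67 (-0.63, adjusted p = 0.11). For Ccnd3 the difference was -0.25 (adjusted p = 0.41). That the other 45 genes did not pass does not show that their T and NK changes were alike.

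Inside single clusters, Ccnd3 passed in more clusters than any other of the 46 genes. It fell in all 5 T clusters and in NK clusters 0 and 7, by 0.92, 0.53, 0.98, 0.77 and 0.71 in clusters 1 to 5 and by 0.36 and 0.76 in clusters 0 and 7 (log2; edgeR adjusted p = 0.00185, 0.00659, 0.004, 0.000696, 0.00178, 0.00651 and 0.024). In cluster 3 it was at 256.5, 313.6 and 239 CPM in control and 122.8, 156.8 and 149.8 CPM in CAL-101 mice, and in cluster 0 at 538.9, 542.2 and 492.2 CPM against 399.7, 396.1 and 447.4 CPM. In none of the 7 clusters did the groups overlap, though the share of all genes without overlap was not counted in single clusters. All of these calls but that of cluster 7, which held in 3 of 6 omissions, held without each mouse in turn. In cluster 8 its log2 value was -0.50 (adjusted p = 0.148).

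Ccnd2 fell in T clusters 1, 2, 4 and 5 (log2 -0.54, -0.61, -0.64 and -0.34) and rose in NK cluster 0, from 182.6, 229.8 and 192.2 CPM to 288, 256 and 260.9 CPM (log2 0.40, adjusted p = 0.0129). These 5 calls held in 5, 2, 3, 1 and 3 of the 6 omissions. Cdkn1a rose in cluster 3, from 54.27, 34.71 and 50 CPM to 99.43, 70.6 and 80.72 CPM (log2 0.76 ± 0.17, adjusted p = 0.0301), and in cluster 5, from 20.92, 17.78 and 22.23 CPM to 37.61, 29.19 and 30.28 CPM (log2 0.62 ± 0.16, adjusted p = 0.0441). These held in 2 and 1 of the 6 omissions. In the summed T set the Cdkn1a value had the other sign (-0.18), with cluster 3 at 32.2% of control and 8.30% of CAL-101 T cells.

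**Figure D4:**
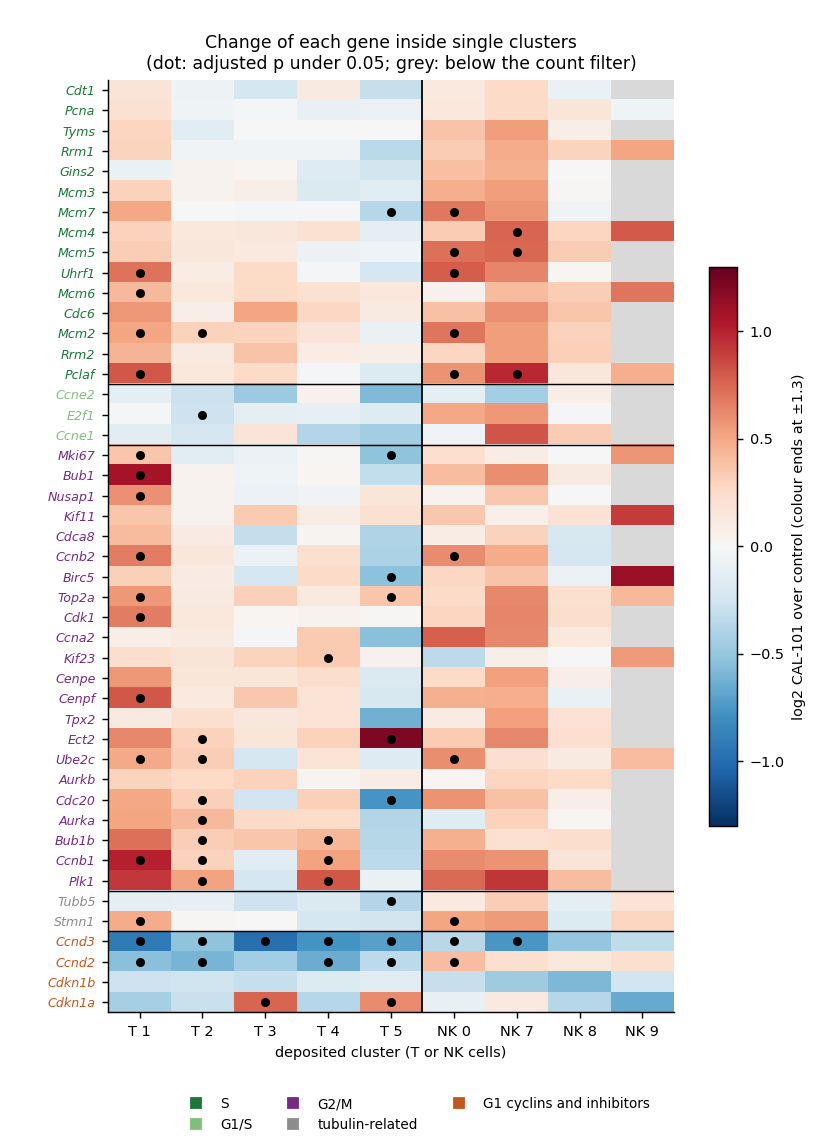
Log2 change (colour, CAL-101 over control) of each gene (rows) inside each of the 9 clusters (columns), with dots at an adjusted p under 0.05 and grey where counts were below the filter. Ccnd3 is dotted in 7 clusters, and cluster 1 holds the most dots, 16.

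Cluster 1 held 14 of the 42 higher calls in single clusters, with 5.72% of its genes higher and 6.13% lower. Pclaf was at 32.26, 39.14 and 43.02 CPM in control and 63.5, 69.11 and 72.38 CPM in CAL-101 mice there (log2 0.81 ± 0.12, edgeR adjusted p = 0.00145), and this call held in all 6 omissions. Mki67 and Top2a rose by 0.36 and 0.56, each in 2 of 6 omissions. The mitochondrial share of this cluster is given above, and its part in these values was not tested.

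In cluster 2, where 5.94% of genes rose and 6.69% fell, 8 of the 46 genes rose: Mcm2, and the G2/M genes Ccnb1, Cdc20, Ube2c, Plk1, Aurka, Bub1b and Ect2. Plk1 was at 35.55, 33.44 and 31.63 CPM against 51.03, 46 and 53.03 CPM (log2 0.52 ± 0.08, edgeR adjusted p = 0.00615) and Aurka at 22.39, 21.11 and 21.45 CPM against 28.81, 32.06 and 29.54 CPM (log2 0.42 ± 0.07, adjusted p = 0.00759). Both held in all 6 omissions, Ube2c in 3, Mcm2, Ccnb1, Cdc20 and Bub1b in 2 and Ect2 in 1. E2f1 fell in cluster 2, from 34.5, 32.46 and 34.03 CPM to 28.31, 29.93 and 28.87 CPM (log2 -0.27, adjusted p = 0.0303, kept in 1 of 6 omissions). In cluster 4, with 3.68% of genes higher and 4.65% lower, Ccnb1, Plk1, Bub1b and Kif23 rose. Plk1 was at 14.82, 12.95 and 11.97 CPM against 23.92, 25.48 and 20.85 CPM there (log2 0.81 ± 0.15, adjusted p = 0.00511), a call kept in all 6 omissions, while those of Bub1b, Ccnb1 and Kif23 held in 3, 2 and 1.

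Cluster 5 went the other way for several genes, with 2.45% of all its genes higher and 2.80% lower. Tubb5 fell from 345, 304.6 and 337.8 CPM to 255.6, 259.4 and 270.1 CPM (log2 -0.38 ± 0.07, edgeR adjusted p = 0.0108), a call that held in all 6 omissions. Mki67 (-0.53), Birc5 (-0.53), Cdc20 (-0.76) and Mcm7 (-0.37) fell, and Top2a (0.36) and Ect2 (1.21) rose, in at most 2 of 6 omissions each. Control mice had only 92 to 179 cells in cluster 5. In cluster 3, Ccnd3 and Cdkn1a were the only genes of the 46 that passed, beside 3.26% of genes higher and 3.47% lower.

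Among NK clusters, Mcm2, Mcm5, Mcm7, Pclaf, Uhrf1, Ccnb2, Ube2c and Stmn1 rose in cluster 0 along with Ccnd2 (2.76% of genes rose and 2.14% fell). Pclaf was at 18.9, 21.79 and 21.47 CPM in control and 29.34, 28.01 and 38.45 CPM in CAL-101 mice (log2 0.58 ± 0.12, edgeR adjusted p = 0.0126, kept in 4 of 6 omissions). Of the other 8 calls, those of Mcm2 and Stmn1 held in 5 and 4 omissions, Mcm7 and Ccnd2 in 3, Mcm5, Uhrf1 and Ube2c in 2 and Ccnb2 in 0. In cluster 7, where 0.345% of genes rose and 0.454% fell, Pclaf (0.98), Mcm4 (0.76) and Mcm5 (0.75) rose, in 3, 1 and 2 of the 6 omissions. In cluster 8, none of the 46 passed in edgeR, and 0.00% of all genes were higher and 0.0977% lower. There 4 S and 2 G2/M genes were higher at an unadjusted p under 0.05, and DESeq2 called none of the S and G2/M genes. Of all 9215 genes tested in cluster 8, 960 had such a p in either direction. Cluster 9, in which 0.319% of genes were higher and 0.447% lower, held enough counts for 17 of the 46 genes and none passed. In it 1 S and 1 G2/M gene were higher at an unadjusted p under 0.05, beside 493 of all 4695 genes in either direction.

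Of the 59 calls in single clusters, 42 were higher and 17 lower. Without control 1, 2 and 3 there were 16, 47 and 14 higher and 10, 23 and 10 lower. Without CAL-101 1, 2 and 3 there were 20, 28 and 11 higher and 10, 11 and 7 lower. Shares of all genes in single clusters are given for the fits with all mice only. The 11 calls kept under all omissions were those of Ccnd3 in clusters 1 to 5 and 0, Pclaf in cluster 1, Plk1 in clusters 2 and 4, Aurka in cluster 2 and Tubb5 in cluster 5. Whether a change differed between clusters was not tested.

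The share of cells that carried RNA of both phases was also higher in CAL-101 mice. Each cell was thinned to 3000 UMIs and counted as S if it kept at least 2 UMIs of the 15 S genes and as G2/M by the same rule on the 22 G2/M genes. Cells of both phases were 45, 46.5 and 42.7% of T cells in control and 51.6, 51.7 and 56.7% in CAL-101 mice, which did not overlap. Cells of the S genes only were 18.9% ± 0.573 and 16.6% ± 0.837 (SD, n = 3), cells of the G2/M genes only 12.3% and 12.4%, and cells of neither 24.1% and 17.7%. Cells below 3000 UMIs, 2513 from control and 2478 from CAL-101 mice, were not used. The shares are thus of the 82.1% of control and 82.9% of CAL-101 T cells that reached this depth. Cluster 1, with median depths of 2474 to 3185 UMIs, is under-represented among them.

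In NK cells, cells of both phases were 8.54, 13.1 and 9.04% in control and 18.2, 19.5 and 16.5% in CAL-101 mice. Cells of neither were 56.9% ± 3.08 in control and 45.6% ± 1.57 in CAL-101 mice (SD, n = 3). Cells with both were 93.2% of cluster 2, 74.6% of cluster 4 and 80.0% of cluster 8 (means of 6 mice), and 2.49% of the 241 neutrophils that reached 3000 UMIs. These shares are scores over the genes and got no test.

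**Figure D5:**
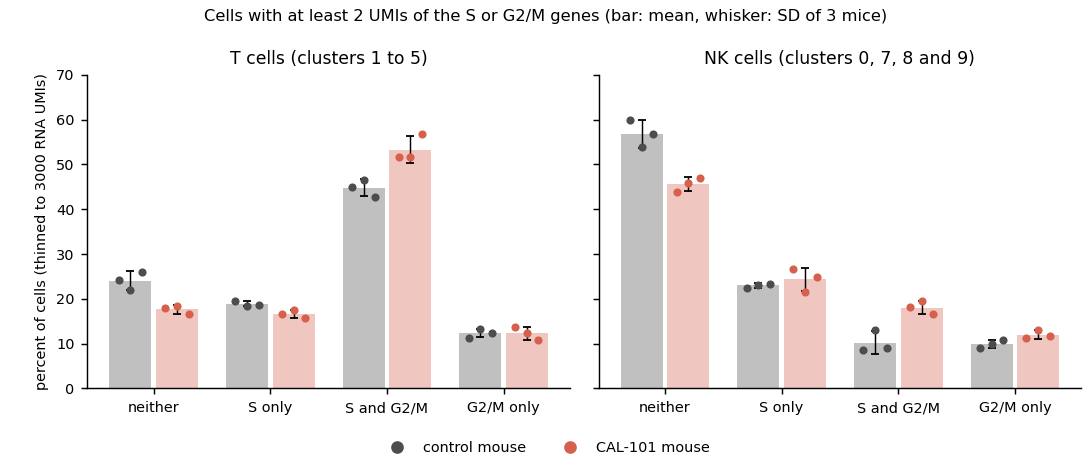
Percent of T cells (left) and NK cells (right), thinned to 3000 UMIs, with at least 2 UMIs of neither group, of S genes only, of both, or of G2/M genes only (points: mice; bar and whisker: mean and SD of 3 mice). Cells of both are at 42.7 to 46.5% in control and 51.6 to 56.7% in CAL-101 T cells.

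At the same depth, Mki67 was found in 32.8, 35.9 and 33.8% of control T cells and 37.3, 38.3 and 38.2% of CAL-101 T cells. Top2a was found in 35.9, 39.4 and 35.5% against 44, 45 and 45.2%. In NK cells Mki67 was found in 8.65, 11.7 and 9.72% against 14.5, 16.9 and 14.4%, and Top2a in 11.6, 15.6 and 11.9% against 19.5, 17.1 and 16.9%. These 4 comparisons did not overlap, and the exact 2-sided permutation test gave p = 0.1, the smallest that 3 mice against 3 allow (adjusted over 8 pairs of gene and class, 0.114). In neutrophils, a type without division, both genes were found in 4.98% of cells, and median depths before thinning were 13380 UMIs for T, 7573 for NK and 4021 for neutrophil cells.

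Pcna was found in 36.4% ± 0.791 of control and 38.5% ± 1.25 of CAL-101 T cells (exact permutation p = 0.1, SD, n = 3) and in 25.2% and 28.5% of NK cells (p = 0.1). In neutrophils it was found in 11.7% of control and 24.1% of CAL-101 cells (means of mice, 241 cells in all). The NK share of CAL-101 mice was close to the neutrophil share of CAL-101 mice, while that of control mice lay above the control neutrophil share. The CAL-101 neutrophil share rests on few cells: of 99 such cells, 41 lay below 3000 UMIs. Tyms was found in 18.9% and 20.4% of T cells (exact permutation p = 0.2) and 6.48% and 9.14% of NK cells (exact permutation p = 0.1), against 3.32% of neutrophils. The Pcna shares depended on depth. Thinned to 1600 UMIs, Pcna was in 7.30% and 13.1% of neutrophils and 15.5% and 16.5% of NK cells, where the NK groups overlapped (exact permutation p = 0.5). In T cells the shares were then 20.8% and 22.8% (exact permutation p = 0.1).

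Further cell cycle genes were read beside the same shares of all genes, 8.41% higher and 8.92% lower in T cells. In T cells 4 of 30 further S genes rose (13.3%), among them Cdc45, a helicase activator (log2 0.39), E2f8, a repressing E2F (0.31), and Cdca7 (0.53), and none fell. Of 34 further G2/M genes 12 rose (35.3%) and none fell, with Hmmr (0.50), the kinesin Kif2c (0.44) and the condensin subunit Smc4 (0.29) of smallest p. Of 32 regulators 5 rose (15.6%) and 3 fell (9.38%), the latter close to the share of all genes. Those that rose included Cdc25b, the phosphatase that activates CDK1 (0.69), and E2f3 (0.36), and those that fell were Rbl2, a retinoblastoma relative (-0.44), Cdkn2a (-0.54) and Ccng2 (-0.38). The medians were 0.17, 0.22 and 0.10. Cdk4 (0.35) and Cdk6 (0.43), the kinase partners of D cyclins, were among those that rose. Without control 1, 2 and 3 the numbers that rose were 0, 10 and 0 for S, 5, 15 and 1 for G2/M and 3, 6 and 3 for regulators. Without CAL-101 1, 2 and 3 they were 1, 4 and 0, then 6, 10 and 4, then 2, 4 and 2. Of all genes, 3.56% to 11.0% rose under the omissions. Where the S count was 0, 4 or 5 of the 30 were higher at an unadjusted p under 0.05 in edgeR. With all mice, 14 of the 30 were higher and 0 lower at such a p. Of all 16450 genes, 5300 then had such a p in either direction. Shares of all genes at an unadjusted p are not given for the omissions. The counts of S genes under the omissions are thus not shown to exceed those of all genes. The regulators that fell numbered 0 to 2 under the omissions, with 3 lower at an unadjusted p under 0.05 where the count was 0. Hmmr, Cdc25b and E2f3 rose under all 6 omissions. Without cluster 2, 3 of 30 S, 3 of 34 G2/M and 5 of 32 regulator genes rose, beside 8.23% of all genes. The S and G2/M counts were thus close to the share of all genes there.

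In NK cells, where 2.54% of all genes rose and 1.76% fell, 10 of 30 further S genes rose (33.3%), with Dtl (0.75), Cdca7 (0.91) and Cdc45 (0.79) of smallest p, and 10 of 34 G2/M genes (29.4%), with Hmmr (0.86), Kif20b (0.48) and Ttk (0.83) of smallest p. The largest log2 values were those of Exo1 (1.02) and Cdc25c (1.07). Of the 32 regulators Fbxo5, an inhibitor of the anaphase-promoting complex (0.75), Cdc25b (0.70), Rbl1, Chek1 and E2f4 rose, and Ccng2 fell (-0.43). The medians were 0.56, 0.45 and 0.23. Without control 2 the numbers that rose were 23, 24 and 12, and without CAL-101 2 they were 6, 4 and 0. Without each of the other 4 mice none rose but 1 G2/M gene without CAL-101 1. Where a count was 0, 21 to 23 S, 22 to 25 G2/M and 9 to 15 regulator genes were higher at an unadjusted p under 0.05 in edgeR. With all mice, 2960 of all 13832 genes had such a p in either direction. No NK call of these 3 lists held in more than 3 of the 6 omissions, and that of Ccng2 held in 1. Without cluster 8, 3 S, 0 G2/M and 0 regulator genes rose, beside 0.940% of all genes. At an unadjusted p under 0.05, 18, 4 and 9 were higher. E2F strings were in 7 and TTTGAA in 5 of the 25 further S windows, and in 2 and 19 of the 31 further G2/M windows.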

How the data were processed

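The 12 sample records describe RNA and surface protein libraries of 6 mice. The authors deposited whole-number UMI counts per cell for 32285 genes, and 102 antibody tags that were not used here. The file headers name Cell Ranger 7.1.0, and the submitters' processing notes name the mm10 build and Seurat. The sources used here do not say how genes were annotated or cells called and labelled. No deposited cell had fewer than 500 RNA UMIs. Cells were taken by deposited cluster and label, with doublets kept: Scrublet (scanpy 1.11.5) marked 0 to 1.61% per mouse and so did not work, and leaving out the 2806 highest-scored cells was an alternative.

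UMIs were summed per mouse and set, or per mouse and cluster with at least 20 cells in every mouse, and fitted by the quasi-likelihood method of edgeR 4.0.16 in R 4.3.3 (TMM scaling, filterByExpr, no term but group), with Benjamini-Hochberg adjustment over all genes tested. CPM divides by plain totals, log2 values use TMM. The T minus NK difference used limma 3.58.1 (prior count 2). Shares of thinned cells used exact permutation over 20 assignments (Python 3.11.15). DESeq2 1.42.0, other scalings, filters and cell sets, a replicate block and omission of each mouse were alternatives. The fits were tested on simulated data.

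The genes, lists and tests were chosen with earlier results of these data known. Full values were given for Mki67, Top2a, Cdk1, Ccnb1, Pcna, Mcm5, Tyms, Rrm2, E2f1, Ccnd2, Ccnd3, Cdkn1a and Cdkn1b. The same holds for the 3 genes of smallest p past the threshold per phase and set, except Stmn1 and Tubb5 in NK cells. Of each further cell cycle list, the 3 of smallest p were named. Other genes named were chosen after their values were seen.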

Additional observations from a re-analysis of the deposited data

Results flagged for a closer look

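Ccnd2 was singled out because its CAL-101 effect differed between T cells and NK cells by a test of that difference. The T cell log2 change was 0.88 lower than the NK change (-0.88 ± 0.13, limma adjusted p = 0.0432), from -0.67 in T cells and 0.24 in NK cells. In T cells 3 of 3 CAL-101 mice were below every control mouse, and in NK cells 2 of 3 were above every control mouse. The adjusted p was under 0.05 without CAL-101 2 and not without any other mouse.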

How the results depend on the processing

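The S and G2/M values of T cells kept their sign in every gene under DESeq2, upper quartile scaling, other filters, other cell sets, thinning and each omission, except Gins2 and Rrm1 without cluster 2. In NK cells Aurka turned negative on thinned cells, and Aurka and Kif23 without cluster 8. Without cluster 2, 6 G2/M genes passed in T cells; without cluster 8, NK cells gave 241 genes in all, 4 S and 0 G2/M genes. In NK cells DESeq2 called 14 S genes, no filter on low counts gave 1270 genes and 14 S genes, all cells of the clusters gave 918 genes, and thinned cells gave 381 genes and 12 G2/M genes. Leaving out 1 mouse gave 1288 to 3782 genes in T cells (0 to 6 S, 8 to 21 G2/M) and 2 to 1635 in NK cells (0 to 14 S, 0 to 21 G2/M). In single clusters it gave 11 to 47 higher and 7 to 23 lower calls, and for the T minus NK difference 0 to 128 genes, with Ccnd2 at -1.01 to -0.81. The highest counts came without control 2 or, for the T minus NK difference, without CAL-101 2.

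Replicate numbers did not pair the mice: same-numbered mice correlated at -0.23, -0.24 and 0.02 in T cells and -0.02, -0.06 and -0.06 in NK cells. With the replicate block, T cells gave 1381 genes, 0 S and 7 G2/M genes, NK cells 395 genes, 6 S and 20 G2/M genes, single clusters 19 higher calls and 13 lower, and the T minus NK difference 2 genes, with Ccnd2 at -0.88 (adjusted p = 0.0826). With the block, 5 S genes in T cells were higher at an unadjusted p under 0.05 in edgeR.

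Shares of cells by phase depended on the UMI rule. The CAL-101 minus control difference in S only T cells was -2.29 points, and -4.36 at 1 UMI, 0.90 at 1600 UMIs per cell and -3.11 unthinned. In G2/M only T cells it was 0.0479 points, and -1.31 at 1 UMI and 1.37 at 1600 UMIs. In NK cells S only was 1.37 points, and -3.25 at 1 UMI and -3.91 unthinned; G2/M only was 2.07, and -0.785 at 1 UMI and 0.243 unthinned. Cells of both phases in NK cells were at 7.83 points, and 10.3 at 1 UMI, 4.48 at 1600 UMIs and 11.9 unthinned. Leaving out 1 mouse gave -2.72 to -1.89 for S only, 6.89 to 9.46 for both and -0.676 to 0.771 for G2/M only in T cells, and 0.223 to 2.73, 6.99 to 9.28 and 1.54 to 2.48 in NK cells. Over single genes and clusters, 1170 values stayed as in the main analysis, 408 lost an adjusted p under 0.05, 18 gained one and 67 counts or shares moved. The causes were not tested. With 3 mice a group, shares cannot reach p under 0.1.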
